A study of Mus musculus with 10 samples.

Results

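The genes described here encode the proteins of the mitochondrial ribosome. They were taken by name, as the protein-coding rows whose symbol begins with Mrpl (large subunit) or Mrps (small subunit), and 78 of the 55952 listed genes met this rule, 49 with a large-subunit name and 29 with a small-subunit name. A further 6 rows with these prefixes are pseudogenes and were left out. The study profiled kidney RNA from C57BL/6 mice kept either at 400 m (control, 5 libraries) or at 4200 m (hypoxia, 5 libraries) for 30 days. No transgene, knockout or drug is named for either group, and neither age nor sex is given in the sources used here. Altitude and keeping site changed together, so altitude and any other property of the site cannot be told apart. The labels do not say that the 5 libraries of a group came from 5 separate mice, and the p-values then measure the spread between these libraries.

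Mitochondrial ribosomes translate the few messenger RNAs encoded by the mitochondrial genome, all of them for subunits of the respiratory chain and ATP synthase. Their ribosomal RNAs are made inside the organelle, whereas every ribosomal protein is encoded in the nucleus, made in the cytosol and imported. Many of the proteins have relatives in the bacterial ribosome, and others were gained in the mitochondrial lineage. Kidney proximal tubule cells are rich in mitochondria, since they drive the reabsorption of salt, glucose and amino acids with ATP from oxidative phosphorylation.

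Promoter windows from RefSeq (GRCm38.p6, 250 bases before to 50 bases after each annotated start) were found for 69 of the 78 genes. The stretches shown here lie before the annotated start and hold no annotated exon base. They were chosen after the matches were seen because they carry the motifs to which the last section returns, and capitals mark a match. In Mrpl34, a member that fell, capitals mark TACANNTCC, part of the element bound by the transcription factor ZNF143. In Mrpl22, which also fell, and in Mrpl9, which did not pass the test, they mark the core GCATGCGC or its reverse GCGCATGC, bound by nuclear respiratory factor NRF1. In Mrps22, which did not pass the test, they mark the ZNF143 letters and then the core CCGGAAGT of ETS factors such as GABP.

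Mrpl34 (chr8:71464726-71464925, plus strand): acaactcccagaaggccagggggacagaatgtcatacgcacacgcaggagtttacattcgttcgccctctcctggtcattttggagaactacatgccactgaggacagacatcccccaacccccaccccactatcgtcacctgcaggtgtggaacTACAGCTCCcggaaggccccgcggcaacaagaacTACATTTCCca

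Mrpl22 (chr11:58171461-58171660, plus strand): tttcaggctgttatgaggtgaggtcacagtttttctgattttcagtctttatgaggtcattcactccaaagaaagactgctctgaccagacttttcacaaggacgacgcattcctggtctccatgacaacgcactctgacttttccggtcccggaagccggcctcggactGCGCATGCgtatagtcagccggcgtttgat

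Mrpl9 (chr3:94443118-94443317, plus strand): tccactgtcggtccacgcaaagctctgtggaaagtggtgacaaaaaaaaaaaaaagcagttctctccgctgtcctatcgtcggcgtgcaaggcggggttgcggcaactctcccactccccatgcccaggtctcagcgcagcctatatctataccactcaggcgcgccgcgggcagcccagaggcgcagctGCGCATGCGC

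Mrps22 (chr9:98601680-98601879, minus strand): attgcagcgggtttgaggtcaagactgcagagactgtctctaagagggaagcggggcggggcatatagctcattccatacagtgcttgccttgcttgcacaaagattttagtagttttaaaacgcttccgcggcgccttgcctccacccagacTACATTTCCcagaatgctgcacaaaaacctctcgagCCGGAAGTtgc

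Each library held between 16561672 and 17845464 reads on listed genes, recovered from the deposited values. The tested members were covered by 8 to 3509 reads per library. Kidney markers were abundant in every library, with the 8 proximal tubule markers summing to between 1659 and 3365 FPKM, a read density scaled to exon length and library size. The labels' extraction text names retina, while the tissue field names kidney. The 5 retina markers summed to 0.122 to 0.656 FPKM. Hypoxia libraries 4 and 5 stood apart. The 5 adrenal cortex markers summed to 1026.5 FPKM in library 4 and 11.9 in library 5, against 0.847 to 1.40 in the controls. The 5 B cell markers summed to 344.1 FPKM in library 5 against 0.909 to 1.74. Of the 5 acinar pancreas markers, Ctrb1 (15.4 FPKM), Prss2 (6.53), Pnlip (4.52) and Cpa1 (2.79) stood out in library 5, against at most 0.176 in any other library. The remaining acinar marker, Cela1, was lowest in library 5, at 17.7 FPKM. Library 4 also had the highest sum of fat markers, 612.4 FPKM against 62.6 to 170.9 in the controls. Ucp1, also on the fat list, went the other way in all hypoxia libraries. It was at 9.31, 4.28, 0, 14.4 and 8.53 FPKM in controls and at 0 to 0.101 in hypoxia. Its log2 fold change was -3.23 (adjusted p = 0.0244, limma), and -3.29 without libraries 4 and 5 (adjusted p = 0.0599, limma). Results are given with and without these 2 libraries.

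Some mitochondrial ribosomal protein transcripts were less abundant at 4200 m, with members of both subunits among them. Of the 76 members tested, 27 fell and none rose (limma on log2(FPKM + 0.5), Benjamini-Hochberg adjusted p under 0.05 over 15264 genes), beside 7.79% of all tested genes lower and 3.66% higher. The count at an unadjusted p under 0.05 was 44 lower and 3 higher, beside 16.8% of all tested genes lower and 12.3% higher. The median log2 fold change over the 76 members was -0.25, and it was 0.01 over all tested genes. Below zero were 66 of the 76 members. Every hypoxia value lay below every control value for 24 members, against 8.54% of tested genes, and above for 1 member, against 5.68%. The count of members that fell moved with the libraries included, and so did that of all tested genes. It was 10 without control library 1 (3.94% of all genes lower) or 2 (3.96%), 12 without control 3 (4.44%) and 14 without control 5 (4.86%), hypoxia 1 (6.01%) or hypoxia 4 (4.99%). It was 15 without hypoxia 3 (5.56%), 22 without control 4 (6.49%), 28 without hypoxia 5 (11.01%) and 30 without hypoxia 2 (8.67%). Whichever library was left out, 10 members fell: Mrpl14, Mrpl16, Mrpl20, Mrpl34, Mrpl38, Mrpl41, Mrpl51, Mrpl54, Mrps7 and Mrps36. In bulk tissue, fewer cells of a type and less RNA per cell cannot be told apart.

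Members of both subunits fell. Among large-subunit names 17 of 48 fell, with a median log2 fold change of -0.24. Among small-subunit names 10 of 28 fell, with a median of -0.28. The difference between the subunits was not tested. Summed over large-subunit members, the level was 1134 ± 75.8 FPKM in controls and 884.0 ± 89.6 in hypoxia (SD, n = 5), and each hypoxia library (746.5 to 995.6) lay below each control library (1024 to 1214). For the small subunit the sums were 487.1 ± 29.2 and 383.6 ± 41.8 FPKM, again with hypoxia (320.7 to 431.7) below control (453.6 to 526.5).

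**Figure D1:**
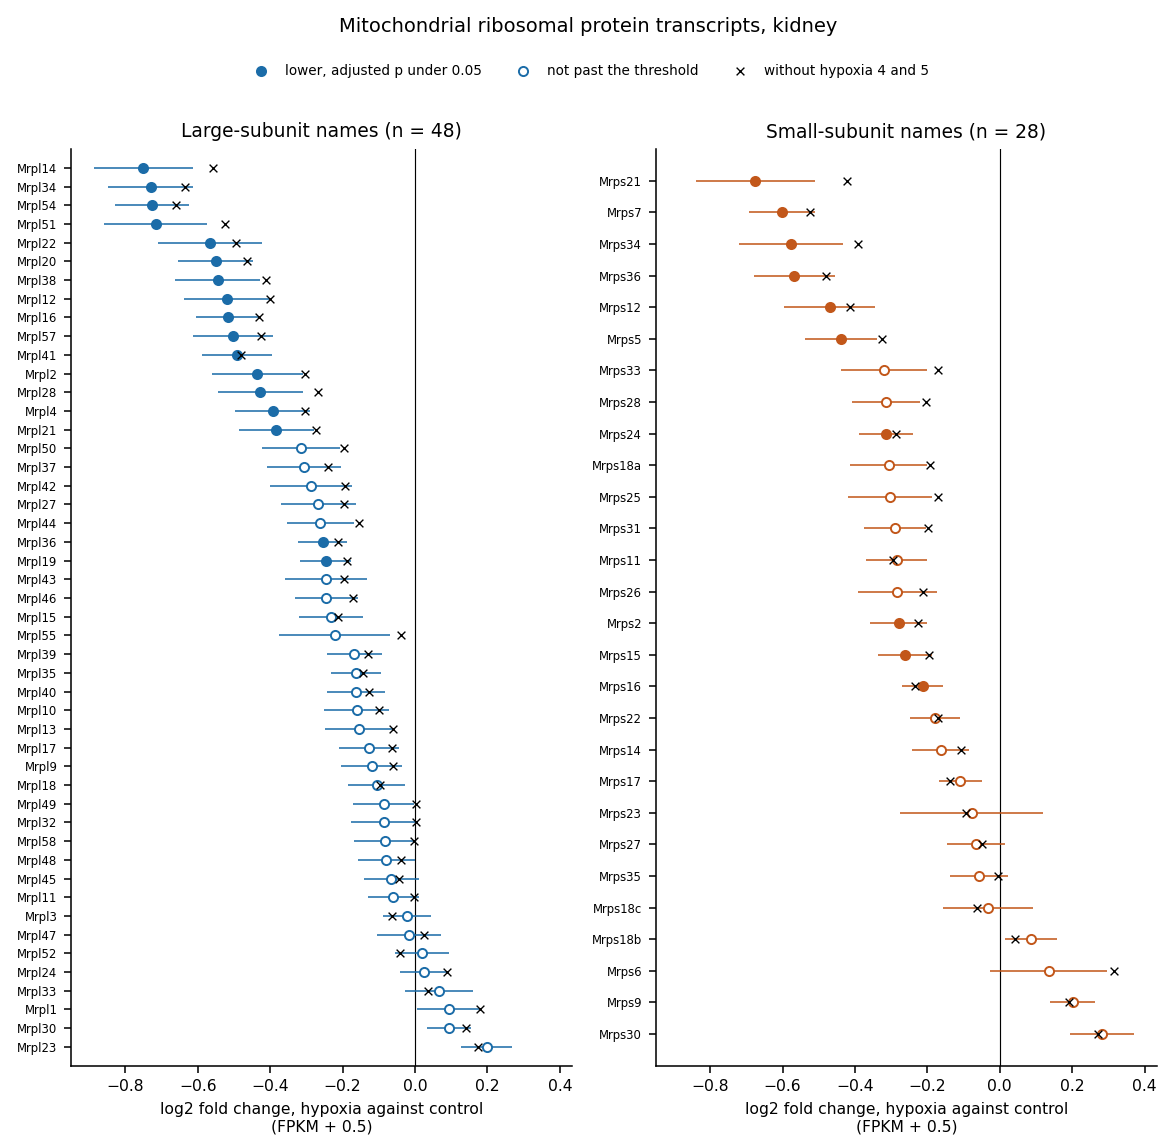
Log2 fold change (hypoxia against control, on FPKM + 0.5) of each tested member, with its standard error as a horizontal bar, for the 48 large-subunit names (left) and the 28 small-subunit names (right). Filled points are the 17 and 10 members that fell, open points did not pass the threshold, and crosses give the value without hypoxia libraries 4 and 5, which mostly lie nearer to zero and on the same side.

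In the large subunit the members with the largest falls were spread over its parts. Mrpl14 (ENSMUSG00000023939, chr17:45686322-45698495), a protein of the face that meets the small subunit, was at 35.5, 37.5, 35.8, 36.0 and 31.1 FPKM in control libraries 1 to 5 and at 21.3, 28.5, 21.9, 17.5 and 16.1 in hypoxia libraries 1 to 5. The highest hypoxia library stayed below the lowest control. Its log2 fold change was -0.75 ± 0.14 (SE, adjusted p = 0.00829, limma with Benjamini-Hochberg adjustment). Mrpl34 (chr8:71464959-71465747), a small, basic protein bound to the large ribosomal RNA, was at 109.7, 109, 107, 87.8 and 99.1 FPKM in controls and 57.3, 75.5, 65.2, 62.4 and 49.3 in hypoxia. The groups again did not overlap, and the log2 fold change was -0.73 ± 0.12 (adjusted p = 0.00526, limma). Its upstream stretch is the first of those shown above.

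Mrpl54 and Mrpl51 have no bacterial relative. Mrpl54 (chr10:81264713-81266934) had the smallest adjusted p of the members (0.00303, limma): control libraries were at 50.9, 49.5, 46.8, 39.2 and 43.8 FPKM and hypoxia libraries at 26.3, 33.0, 27.4, 28.1 and 23.4. The drop, -0.73 ± 0.10 on the log2 scale, left a gap between the lowest control and the highest hypoxia library. Mrpl51 (chr6:125191801-125196269) was at 19.6, 17.6, 18.9, 16.8 and 19.0 FPKM in controls and 11.8, 14.6, 11.7, 10.5 and 7.50 in hypoxia. Hypoxia library 5 was the lowest, and the log2 fold change was -0.72 ± 0.14 (adjusted p = 0.0120, limma).

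Mrpl12 was the most abundant member per length. It forms the flexible stalk that recruits translation factors, and the free protein also binds the mitochondrial RNA polymerase. Its level was 133, 139.5, 119, 108 and 117 FPKM in controls and 91.1, 104, 84.4, 84.0 and 68.2 in hypoxia. The groups did not overlap (log2 fold change -0.52 ± 0.12, adjusted p = 0.0221, limma), although hypoxia library 2 came close to control library 4. Mrpl10 and Mrpl11, which anchor the stalk, were not past the threshold, at -0.16 and -0.06.

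Some members near the peptidyl transferase centre and along the exit tunnel fell. Mrpl16 fell by 0.52 and Mrpl2, a core protein near the catalytic centre, by 0.44 on the log2 scale, the latter with overlapping groups and an adjusted p of 0.0498 (limma). Mrpl27, which reaches towards the catalytic centre, was at -0.27 and Mrpl3 at -0.02, neither past the threshold. Of the tunnel proteins, Mrpl22 fell (-0.57 ± 0.14, adjusted p = 0.0314, limma), as did Mrpl4 (-0.39 ± 0.10, adjusted p = 0.0356, limma), while Mrpl24 was at 0.02 and Mrpl23 at 0.20 without passing the test. Mrpl45, which ties the ribosome to the inner membrane, was at -0.07. Mrpl38, in the central protuberance, fell by 0.55, and Mrpl20, an early-assembling protein that binds the large ribosomal RNA, also fell by 0.55. Leaving out 1 library ended the call of Mrpl2 in 8 of 10 fits, of Mrpl22 in 6 and of Mrpl12 in 3. The other large-subunit members that fell were Mrpl57, Mrpl41, Mrpl28, Mrpl21, Mrpl36 and Mrpl19, by 0.50 down to 0.25. In the 10 fits without 1 library, the call of Mrpl41 held in all and that of Mrpl57 in 8. It held in 3 for Mrpl28 and Mrpl4, in 2 for Mrpl21 and Mrpl36, and in 1 for Mrpl19.

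**Figure D2:**
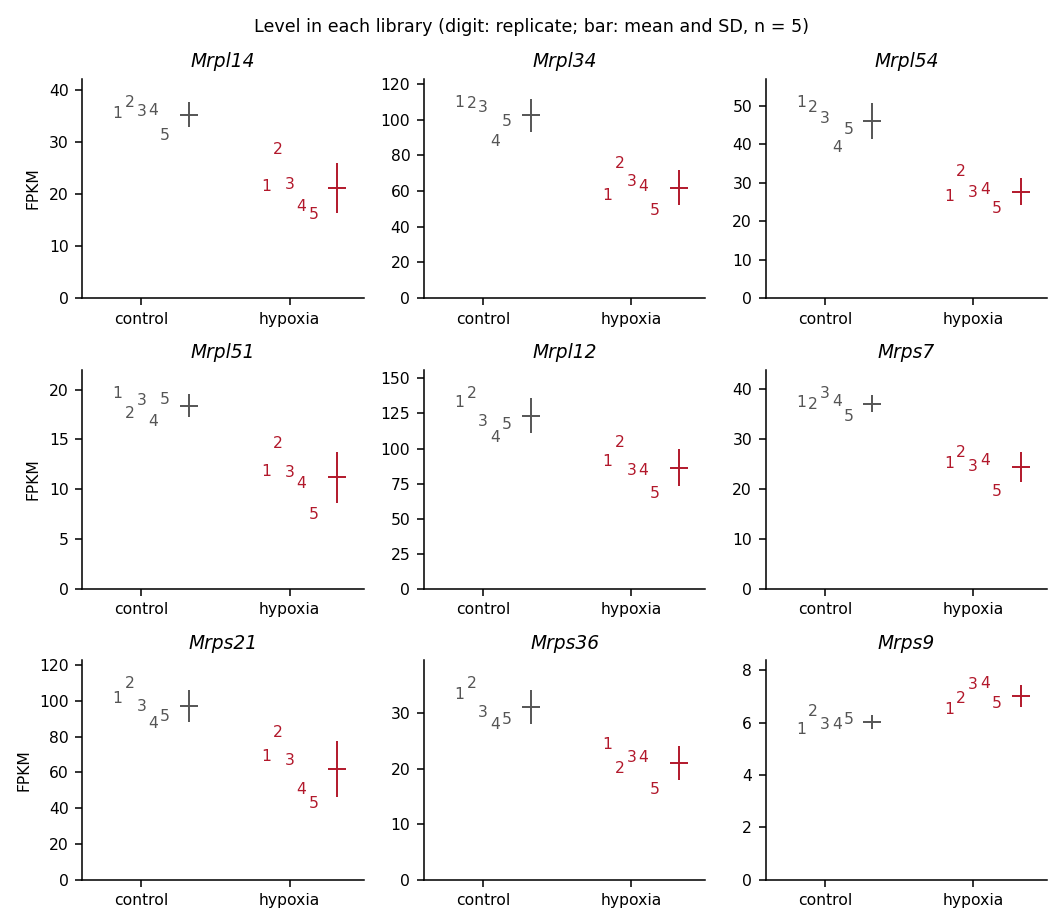
FPKM of 9 members in each of the 10 libraries; a digit marks the replicate number, and the bar gives the mean and SD of the 5 libraries of a group. In the first 8 panels all 5 hypoxia libraries lie below all 5 controls, and for Mrps9 (last panel) they lie above.

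Among small-subunit names, Mrps21 and Mrps7 led. Mrps21 (chr3:95862634-95871519), the relative of a short bacterial protein of the platform where messenger RNA leaves, was at 101, 109.6, 96.7, 87.3 and 91.2 FPKM in controls and 68.8, 82.2, 66.5, 50.6 and 42.6 in hypoxia. Its 2 lowest values were hypoxia libraries 4 and 5, and its log2 fold change of -0.68 ± 0.16 (adjusted p = 0.0274, limma) was -0.42 without them. Mrps7 (chr11:115603925-115608036), which organises the head of the subunit, was at 37.3, 36.9, 39.2, 37.6 and 34.6 FPKM in controls and 25.2, 27.3, 24.5, 25.7 and 19.4 in hypoxia. Here the controls stayed tightly grouped, the gap to hypoxia was wide, and the log2 fold change of -0.60 ± 0.09 (adjusted p = 0.00387, limma) was -0.52 without the 2 libraries.

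Further members with bacterial relatives fell, and 4 of them are described first. Mrps12, at the decoding centre, was at -0.47 and Mrps5, by the messenger RNA entrance, at -0.44. Mrps24 was at -0.31 and Mrps2 at -0.28, and all 4 passed the threshold with adjusted p from 0.0210 to 0.0459 (limma). For these 4 genes each hypoxia library lay below each control library. Leaving out 1 library ended the call of Mrps12 in 8 of 10 fits, of Mrps2 in 7, of Mrps24 in 6 and of Mrps5 in 3, and that of Mrps21 in 5. Mrps34, a mitochondria-specific protein needed for a stable small subunit, was at -0.58 (adjusted p = 0.0297, limma; call lost in 6 of the 10 fits without 1 library). Of its exon bases 77.8% are shared with neighbouring genes, mostly Mapk8ip3 on the opposite strand, and 37.0% are shared on the same strand. Whether the counting used strand is not given in the sources used here, and the value of Mrps34 is uncertain in either case. Mrps25 (69.8% shared) and Mrpl19 (36.0%) share bases on the opposite strand only, so their values are uncertain if strand was not used. The same holds to a lesser degree for Mrpl43 (33.4%), Mrps18b (30.5%), Mrpl24 (26.3%), Mrps27 (24.2%) and Mrpl47 (24.2%). Smaller shares, also on the opposite strand only, are those of Mrpl12 (13.05%), Mrps7 (11.87%) and Mrpl14 (11.17%), which fell. Mrps18c shares 23.2% and Mrps24 15.4% with a gene on the same strand, so their values are uncertain whether or not strand was used. The remaining small-subunit members that fell were Mrps15, at -0.26, and Mrps16, at -0.21, which also have bacterial relatives. In the 10 fits without 1 library, the call of Mrps15 held in 2 and that of Mrps16 in 1.

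Some symbols do not match the place of the protein. Mrps36 is known as a component of the 2-oxoglutarate dehydrogenase complex of the citric acid cycle and not as a ribosomal protein. It fell all the same, from 31.1 ± 3.09 to 20.9 ± 3.07 FPKM (SD, n = 5), without overlap and with a log2 fold change of -0.57 ± 0.11 (adjusted p = 0.0117, limma). Mrps30 and Mrps18a sit in the large subunit despite their names. Moving them there and leaving Mrps36 out gave 17 of 50 lower in the large and 9 of 25 in the small subunit. Mrps18a, Mrps18b and Mrps18c are relatives of a single bacterial protein. They were at -0.31, 0.09 and -0.03, none past the threshold, and Mrps18c was above zero under 3 of the other scalings. Mrpl58, a peptidyl-tRNA hydrolase that became part of the large subunit, was at -0.08.

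Of the 76 members 10 lay above zero. Mrps30 was at 2.90, 3.41, 3.33, 2.73 and 3.25 FPKM in controls and 4.42, 3.30, 3.94, 3.97 and 3.93 in hypoxia, and only hypoxia library 2 reached into the control range. Its log2 fold change of 0.28 ± 0.09 missed the threshold (adjusted p = 0.0662, limma). Mrps9, a head protein whose tail reaches the transfer RNA, was at 5.73, 6.45, 5.94, 5.95 and 6.13 FPKM in controls and 6.50, 6.93, 7.46, 7.49 and 6.73 in hypoxia. It was the member whose hypoxia values all lay above its controls, narrowly, with a log2 fold change of 0.20 ± 0.06 (adjusted p = 0.0611, limma). The other members above zero were Mrpl23, Mrpl1, Mrpl30, Mrpl33, Mrpl24, Mrpl52, Mrps6 and Mrps18b, from 0.02 to 0.20 on the log2 scale, none past the threshold. Mrps6 shares 19.9% of its exon bases with an overlapping gene on the same strand.

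Of the members, 2 could not be tested. Mrpl53 was listed at 0 in every library, and 88.0% of its exon bases are shared with Gm42688 on the same strand. Mrps10 was also listed at 0 throughout, and shares no exon base with another annotated gene. Mrps23 was just above the filter of a mean of 0.5 FPKM, at 0.586 ± 0.173 FPKM in controls and 0.538 ± 0.228 in hypoxia (SD, n = 5).

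The size of the change depended on which scaling set the libraries level. When values were scaled without the 100 most abundant genes, 16 members fell and 3 rose, beside 5.05% of tested genes lower and 6.22% higher. When they were scaled to the reads assigned to listed genes, 21 fell and 3 rose, beside 6.24% lower and 5.25% higher. The 3 members that rose under both scalings were Mrps9, Mrps30 and Mrpl23. The share of calls that were lower, over all tested genes, was 68.0% as deposited, 44.8% under the first of these scalings and 54.3% under the second.

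Without hypoxia libraries 4 and 5 the falls were smaller but still present. Of 76 members 19 fell and none rose, beside 7.75% of tested genes lower and 4.53% higher, and 18 of the 19 had also fallen over all libraries. By subunit, 12 of 48 and 7 of 28 fell, with median log2 fold changes of -0.16 and -0.19. The 3 remaining hypoxia libraries lay below all controls for 26 members, against 11.8% of tested genes. The member added in this comparison was Mrps11, at -0.30. Members that kept the largest falls were Mrpl54 at -0.66, Mrpl34 at -0.63, Mrpl14 at -0.56, and Mrps7 and Mrpl51, both at -0.52.

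Library by library, hypoxia library 5 was the lowest of all 10 for 51 of the 76 members. The median member stood at -0.19, -0.14, -0.21, -0.28 and -0.39 on the log2 scale in hypoxia libraries 1 to 5, relative to the control mean, and between -0.14 and 0.09 in the controls. Hypoxia library 2 and control library 4 had the same median to the second decimal. In hypoxia library 2, 35 members lay below their lowest control, and in library 5, 59 did. The matching shares over all tested genes were not taken, so these counts are not particular to the members. Summed FPKM over all listed genes was lowest in hypoxia library 5, at 335497, against 352208 to 400075 in the controls. Beside this, the proximal tubule markers summed to 2742 to 3365 FPKM in controls, 2835 to 3012 in hypoxia libraries 1 to 3, 2424 in library 4 and 1659 in library 5. Over the 8 genes the median log2 fold change was -0.17 with all libraries and 0.03 without libraries 4 and 5, where that of the mitochondrial ribosomal proteins was -0.18. The transporter Slc22a6 fell in both fits, at -1.18 and -1.01, and Slc5a2, a glucose transporter, at -0.89 with all libraries (adjusted p = 0.0575, limma), fell without libraries 4 and 5, at -0.62. The other 6 did not pass in either fit. Podocyte markers, 4 genes, had a median of 0.43, and all 4 rose without libraries 4 and 5. The part of cell makeup in the result was not tested.

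The members called lower were mainly the abundant ones. Over bands of mean FPKM chosen after the values were seen, 1 of 9 members under 5 FPKM fell, 3 of 18 from 5 to 10, 14 of 36 from 10 to 30, and 9 of 13 at 30 or more. Of all tested genes, 3.002%, 8.41%, 14.7% and 17.9% were lower in these bands. The medians over members went from -0.08 through -0.16 and -0.26 to -0.44, and over all tested genes from 0.09 to -0.16. Length followed the same order: 6 of 8 members under 1000 bases fell, 9 of 22 from 1000 to 2000, 9 of 25 from 2000 to 4000 and 3 of 21 above that. Over all tested genes the shares lower were 5.44%, 10.05%, 9.41% and 6.88%. The listed length counts every annotated exon base once, so a gene with long rare isoforms has a low FPKM. Mrpl33, for example, encodes a very short protein and is listed at 7326 bases and 2.28 ± 0.292 FPKM (SD, n = 5) in controls. The median listed length of members went from 6576 bases in the lowest band of FPKM to 1466 in the highest, and the parts of level and length in the result were not tested.

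**Figure D3:**
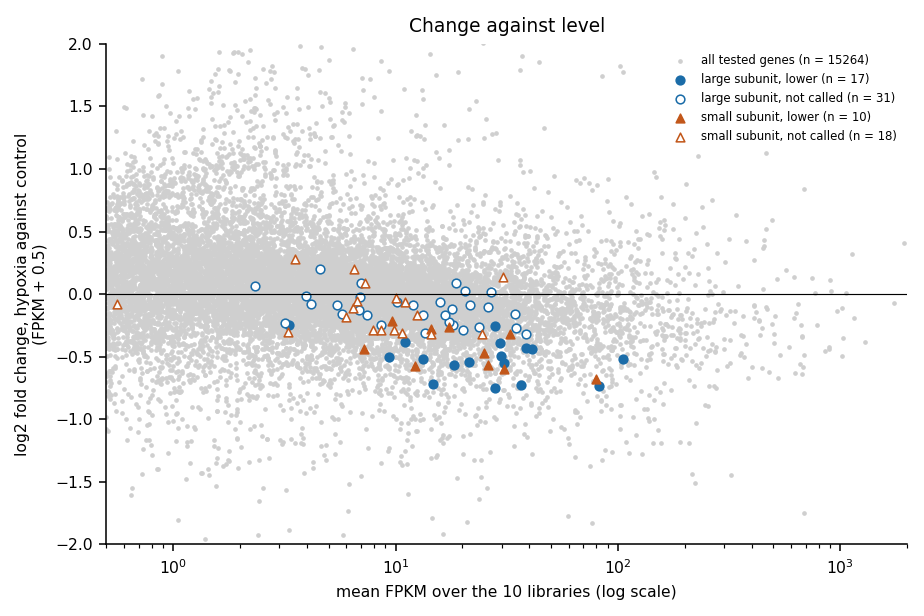
Log2 fold change against mean FPKM over the 10 libraries (log axis) for all 15264 tested genes (grey) and the members by subunit, filled where the member fell; 94 genes lie outside the axes. Of the members at 30 FPKM or more, 9 of 13 are filled, and of those under 5 FPKM, 1 of 9.

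Members were also split by whether the bacterial ribosome has a relative, as far as general knowledge allows. The split follows the usual naming of these proteins, which counts Mrps18a and Mrps18b as mitochondria-specific despite their bacterial relative. Mrps36, which fell, and Mrpl55, which did not pass the threshold, were placed in neither class. Among the 44 tested members with a bacterial relative 20 fell, and among the 30 mitochondria-specific ones 6 fell. The gap depended on the setting. Without hypoxia libraries 4 and 5 the counts were 13 and 5, and when scaled without the 100 most abundant genes 9 and 6. As deposited and over all libraries, the median log2 fold changes of the classes were close, -0.24 and -0.25. In the small subunit the counts were 8 of 15 and 1 of 12, and in the large subunit 12 of 29 and 5 of 18. The medians were -0.28 and -0.23 in the small subunit, and -0.16 and -0.25 in the large. With Mrps18a and Mrps18b moved to the first class, the counts were 20 of 46 and 6 of 28 in all, and 8 of 17 and 1 of 10 among small-subunit names. The difference was not tested. The 5 proteins of the mitochondrial ribosome whose names lack the prefix did not pass the threshold: Gadd45gip1 was at -0.46 (adjusted p = 0.0644, limma), Aurkaip1 at -0.17, Dap3 at -0.15, Chchd1 at -0.08 and Ptcd3 at 0.05.

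The factors that work with these ribosomes fell in part. Of 14 tested translation factors 5 fell and none rose, beside 7.79% of all tested genes lower and 3.66% higher. Tufm, the elongation factor that delivers transfer RNA, went from 81.7 ± 5.11 to 55.4 ± 9.70 FPKM (SD, n = 5), a log2 fold change of -0.57 ± 0.12 (adjusted p = 0.0168, limma). Gfm1, which moves the ribosome along the message, fell by 0.61, Gfm2, which recycles it, by 0.44, and Mtif3, an initiation factor, by 0.48. Taco1, a translational activator, fell by 0.48. Mtif2 was at -0.03, Mrrf at -0.14 and Tsfm at -0.24, none past the threshold. Of 22 aminoacyl-tRNA synthetases and related enzymes 7 fell, among them Yars2 (-0.36) and Aars2 (-0.41). Of 25 ribosome assembly and rRNA modification factors 2 fell, Mrm2 and Dhx30. That is near the 7.79% of all tested genes lower, and the median of these factors was -0.03.

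Of 12 genes for mitochondrial transcription and genome upkeep 1 fell, the nuclease Mgme1, and their median was -0.02. Polrmt, the RNA polymerase, was at -0.27 and Tfam, which packages the genome, at 0.13, neither past the threshold. Tfb1m, which methylates the small ribosomal RNA, was at 0.24. Of 11 regulators of mitochondrial biogenesis 1 fell, Esrra, an orphan nuclear receptor, from 34.0 ± 2.54 to 20.9 ± 5.11 FPKM (SD, n = 5). Myc, also on this list, was at 1.96 ± 0.461 FPKM in controls and 5.15 ± 3.68 in hypoxia (SD, n = 5), where library 5 had 11.6 FPKM and the groups did not overlap. Its log2 fold change of 1.04 missed the threshold with all libraries (adjusted p = 0.0587, limma), and it rose without libraries 4 and 5, at 0.67 (adjusted p = 0.0431). The median of the list was 0.08. For this list and the one before it, 1 fall is near the 7.79% of all tested genes lower. The 2 mitochondrial ribosomal RNAs, with which the members assemble, were at -0.21 (mt-Rnr2) and -0.40 (mt-Rnr1), not past the threshold.

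Genes of the cytosolic ribosome were measured in the same libraries. Of 81 tested cytosolic ribosomal protein genes 7 rose and 1 fell, beside 3.66% of all tested genes higher and 7.79% lower. Their median log2 fold change was 0.30. Without hypoxia libraries 4 and 5, 18 rose and none fell, beside 4.53% of all tested genes higher and 7.75% lower, and the median was 0.13. Their sum was 17185 FPKM in hypoxia library 5, 9937 to 10818 in the other hypoxia libraries and 8800 to 10046 in controls. The nuclear genes of the respiratory chain and ATP synthase were lower in part: 22 of 70 fell, none rose, and the median was -0.36. Of the 13 protein-coding genes of the mitochondrial genome 3 fell, mt-Atp6, mt-Atp8 and mt-Co2, and the median was -0.03.

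**Figure D4:**
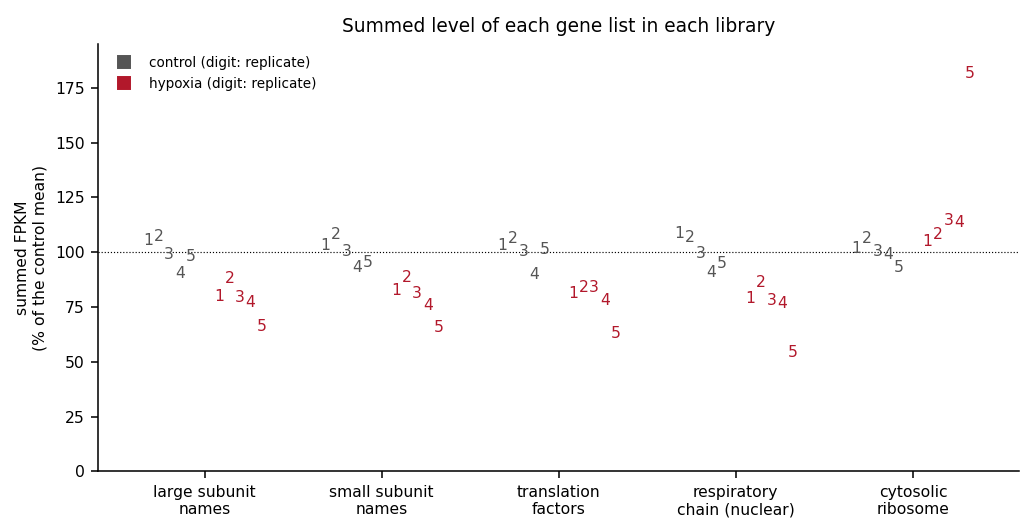
Summed FPKM of 5 gene lists in each library, as a percentage of the control mean of that list; digits are replicate numbers, grey for control and red for hypoxia. For both subunits every hypoxia library lies below every control, whereas the cytosolic ribosome lies highest in hypoxia library 5.

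Many members share a promoter region with another gene. Of the tested members 33 of 76 (43.4%) have a protein-coding neighbour that starts within 1000 bases and runs the other way, against 1921 of 12580 tested protein-coding genes (15.3%). Of these neighbours 29 were tested, 3 fell and none rose, beside 7.79% of all tested genes lower and 3.66% higher. The count that fell is near that share, and whether members and neighbours change together was not tested. The neighbours had a median log2 fold change of -0.07, against -0.25 for the members beside them. The 3 neighbours that fell were next to members that fell: Ndufs6, a complex I subunit 29 bases from Mrpl36, Apba3, 26 bases from Mrpl54, and Klc4, 207 bases from Mrpl2. Ndufs6 went from 82.3 ± 11.3 to 37.5 ± 10.4 FPKM (SD, n = 5), a log2 fold change of -1.15, while Mrpl36 went from 30.5 ± 1.03 to 25.5 ± 2.10. Beside Mrps7, whose start lies 126 bases from that of Gga3, the neighbour was at 0.16, and beside Mrpl51 the neighbour Ncapd2 was at 0.50, neither past the threshold. Mrps11 and Mrpl46 are each other's neighbour, at -0.29 and -0.24.

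**Figure D5:**
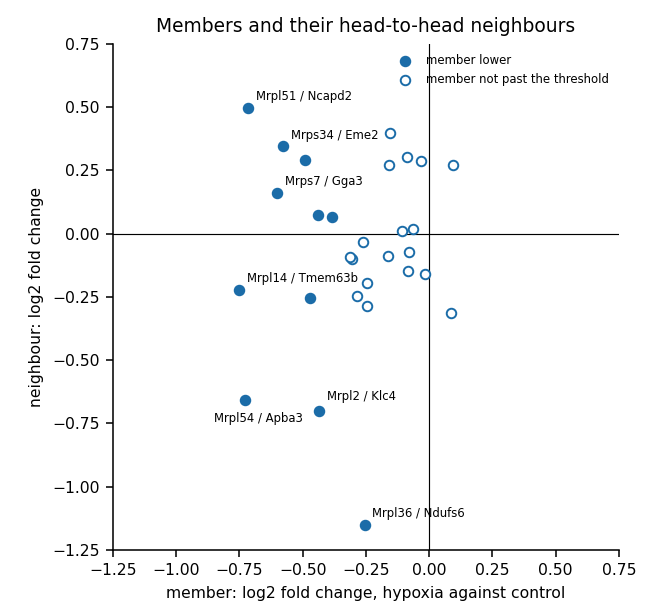
Log2 fold change of 29 head-to-head neighbours against that of the member beside each, filled where the member fell. The 3 labelled points at the bottom are the pairs in which both fell, and for Mrpl51, Mrps34 and Mrps7 the neighbour lies above zero.

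In the promoter windows, cores of factors known to control nuclear genes of mitochondria were searched on both strands. The NRF1 core GCATGCGC was in the windows of 8 of 69 members (11.6%), against 5.70% of tested protein-coding genes and 3.05% of all genes with a window. Its 2 orientations overlap in part, as in the last bases of the Mrpl9 stretch shown above. The ETS core CCGGAAGT was in 12 members (17.4%, against 8.68% and 4.31%), with 9 of its 12 matches in the 100 bases before the start. The core AAGATGGC of YY1 was in 12 members (17.4%, against 5.08% and 3.19%), and 8 of its 12 matches lay after the start, all on the strand of the gene. None of these 3 cores holds another.

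The share with a match was also taken apart by call. At least 1 of the 3 cores was in 6 of the 22 members that fell and have a window (27.3%) and in 23 of the 47 others (48.9%), and the difference was not tested. Among members that fell, the NRF1 core was in Mrpl22, the ETS core in Mrpl51 and the YY1 core in Mrpl36, Mrps12, Mrps24 and Mrps7. By core, the shares in members that fell and in the others were 4.55% and 14.9% for NRF1. They were 4.55% and 23.4% for ETS, and close, 18.2% and 17.0%, for YY1. The ZNF143 letters, searched after the windows had been read, were in 5 members (7.25%), near their share of tested protein-coding genes (7.16%) and of all genes (5.14%). Those members were Mrpl24, Mrpl34, Mrpl42, Mrpl50 and Mrps22. Mrpl34 holds them 3 times, at positions -201, -45 and -11 from the start, and the last 2 copies stand in the stretch shown above. A TATA box, TATAAA, was in 5 members (7.25%, against 9.03% and 15.7%), and CCAAT was in 27 (39.1%, against 42.2% and 41.1%). A match is a run of letters, not a measured binding site.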

How the data were processed

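RNA sequencing of 10 kidney libraries was analysed from 1 gene table of FPKM values, deposited by the authors and already normalized. Per the submitters' processing notes reads were aligned with HISAT2 2.0.5; the notes list the build hg38, while 55141 of the 55952 gene IDs are in GENCODE M21 (GRCm38), 99.4% of them at identical coordinates. No counter, strand setting or test of the authors is named in those sources. Whole reads could be recovered for 100% of values (within 0.05), with 16561672 to 17845464 per library. The library sizes behind the deposited FPKM were 0.949 to 1.10 times these totals, highest in hypoxia library 5, and the reason is not given in the sources used here. Values were taken as log2(FPKM + 0.5) for every gene averaging 0.5 FPKM or more and compared between the groups, with no other term, in a two-sided moderated test (limma 3.58.1 under R 4.3.3, trended and robust variance prior). P-values were Benjamini-Hochberg adjusted over all tested genes, with 0.05 as threshold. The script was tested on simulated data. Members and lists were chosen with earlier results of these data known. Named members are, per subunit, the 8 largest falls and the 4 largest rises past the threshold, the 3 most abundant, the 3 furthest in the other direction, and Mrpl58, Mrps36, Mrps30, Mrps18a, Mrps18b and Mrps18c; others are named after their values were seen. Further listed genes are the fixed names given in the text and up to 4 called genes per list. Alternatives were other scalings, pseudocounts, filters, error models and left-out libraries. Mouse promoter windows are from RefSeq. Proteins were not used here.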

Additional observations from a re-analysis of the deposited data

Results flagged for a closer look

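For the 27 named members and the summed level of each subunit, each group of 5 libraries was searched for a single library far from the rest, relative to the group's range. This gave 58 groups, and chance alone flags about 1 in 20. In 2 groups 1 library stood out. For Mrps24 in hypoxia, library 2 was the highest at 32.22 FPKM, with the next at 28.8, and the gap took up 0.788 of the range. For Mrpl58 in hypoxia, library 5 was the lowest at 9.319 FPKM, with the next at 12.07 and a gap of 0.820 of the range. Library 5 is also the one with the B cell transcripts and with raised T cell, macrophage and dividing-cell markers. On the log2 scale Mrpl58 was at -0.08 with library 5 and at -0.00815 without it, not past the threshold in either fit.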

How the results depend on the processing

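Both subunit medians were below zero under every alternative run, from -0.26 to -0.16 (large) and -0.32 to -0.19 (small). The calls moved more. All genes called, then members lower, large and small, were 1748, 27, 17 and 10 as reported. They were 966, 13, 10 and 3 with no filter on low values and 456, 6, 5 and 1 at an adjusted p of 0.01. The replicate numbers do not pair the libraries (correlations of same-numbered libraries between -0.0771 and 0.0861, 3 of 10 libraries closest to their own number); with the replicate number as a block the counts were 999, 15, 10 and 5. Scaling without the 100 most abundant genes gave 16, 10 and 6 members. Members higher were 1 with median-of-ratios scaling, 2 with TPM scaling, 3 without the 100 most abundant genes and 3 with scaling to assigned reads, the last added after the data were seen. Leaving out 1 library gave 824 to 2724 genes, 10 to 30 members lower, 0 to 1 higher, 8 to 17 large and 2 to 13 small; 824 came without control 1, 2724 without hypoxia 5. Of the 27 members, 10 fell in all 10 of these fits and 13 in fewer than 5. An exact rank-sum test with Benjamini-Hochberg adjustment called 0 genes (smallest p 0.007937, adjusted 0.0558), with 3975 genes and 38 members at an unadjusted p under 0.05, where limma had 4451 genes. Mrps18c, at -0.03, was at 0.0297 with TPM scaling, 0.0418 without the 100 most abundant genes and 0.0347 with assigned reads, and between -0.102 and 0.0629 without 1 library (above zero without control 2 or hypoxia 3). Of 621 single-gene values, 506 kept their side, 98 lost the call, 12 gained it and 5 changed sign. The cause was not tested. This tally is no even measure of stability. The changed filters, the replicate block, limma without the trended and robust prior, and the rank-sum test leave the log2 fold change as it was. No sign could change there. The rank-sum test called no gene, so every call was lost under it. Depth limits Mrps23.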
